A study of Mus musculus with 6 samples.

Results

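The comparison of E16.5-4n with E16.5-2n cardiomyocytes (CMs) was made on 10579 CMs, 4880 in the 4n library and 5699 in the 2n library, of 30733 CMs in the 6 libraries of the series. CMs were the cells with at least 1 unique molecular identifier (UMI, 1 counted RNA molecule) of each of Tnni3, Tnnt2, Actc1 and Tnnc1, a filter that kept 97.8% of the 4988 cells of E16.5-4n and 98.6% of the 5782 cells of E16.5-2n. Both libraries came from left ventricles of C57BL/6J mouse embryos with no further treatment. The cells were dissociated, stained for viability, fixed in methanol, and sorted as MYH1-positive cells by their Hoechst DNA content into a diploid (2n) and a tetraploid (4n) fraction. The titles give E16.5 for both, whereas the age field of the 4n sample reads embryonic day 16.6. Cells of independent sorts of separate litters were pooled before the library, so that each side of the comparison is 1 library and animals cannot be told apart. The other libraries, sorted in the same way, are of P1 and P5. The 4n gate takes in any CM with a doubled DNA content. This may be a mononucleated cell in G2 or M phase as well as a binucleated or tetraploid cell. Diploid cells stuck together could also fall in it by their Hoechst signal. The paper reports that clumps were scarce among sorted cells, and whether any were in these libraries was not tested. The transcript counts do not separate these kinds of cell.

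Cardiomyocytes of the fetal heart divide. A cell copies its DNA in S phase, from origins that were licensed in G1, and then expresses in G2 and M phase the genes for cyclin B and CDK1, the kinetochores, the spindle and the cleavage furrow. Around birth many mouse CMs pass through S phase and mitosis without completing cytokinesis and remain binucleated or polyploid. Genes of the G2 and M phases often carry a TTTGAA element (the cell cycle genes homology region, bound by the MuvB complex with B-MYB and FOXM1) and CCAAT boxes bound by NF-Y, whereas genes of the G1/S transition often carry E2F sites.

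Depth was similar on both sides. The CMs held 14624533 UMIs in the 2n library and 13070343 in E16.5-4n, with medians of 2240 and 2185 UMIs per cell and 1063 and 1073.5 genes per cell, and mitochondrially encoded genes took 8.28% and 8.16% of the UMIs. The libraries shared 34 cell barcodes, against 17 to 62 between the other pairs of libraries. Cardiomyocyte genes that the filter did not use were abundant on both sides: Myl2, the ventricular regulatory light chain, was at 10493 and 8795 CPM (UMIs of a gene for every 1000000 UMIs of its library), and Myh7, the fetal myosin heavy chain, at 3765 and 3351 CPM. Haemoglobin RNA, which CMs should lack, was found in most cells of either library, with at least 1 UMI of Hbb-bs in 84.9% of the 2n library and 87.8% of E16.5-4n CMs. With 1 library per side there is no replicate error and no test. Intervals are exact 95% intervals of the split of UMIs between the libraries, or of a share of cells, and cover counting error only.

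Of 9625 genes with at least 100 UMIs in both libraries together, 447 were at least 2-fold higher in E16.5-4n (4.64%) and 2 at least 2-fold lower (0.0208%), and the median log2 ratio over all of them was 0.03. The 2 genes at least 2-fold lower were Cdt1 and Ankrd63. Among the 447 genes were 91 genes of mitosis and 25 markers of fibroblasts, endothelial, mural, immune or epicardial cells, and 295 belonged to none of the gene lists used here. The split between high and low was uneven at a lower threshold as well, with 895 genes at least 1.5-fold higher and 100 at least 1.5-fold lower. No gene of the sarcomere, of glycolysis or of fatty acid oxidation was among the genes past 2-fold.

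**Figure D1:**
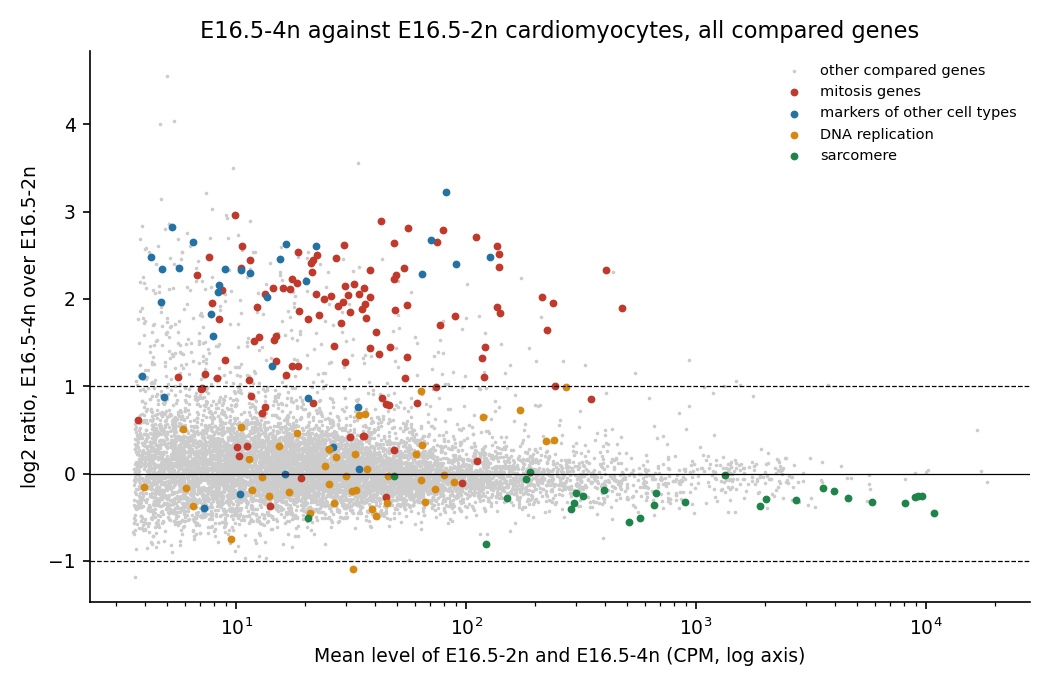
Log2 ratio of E16.5-4n over E16.5-2n against the mean level in CPM on a log axis, 1 point for each of 9625 genes, with dashed lines at 2-fold. Mitosis genes (red) and markers of other cell types (blue) lie mostly above the upper line, DNA replication genes (orange) spread around 0, and sarcomere genes (green) lie below 0 with the exception of Nebl.

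Genes of mitosis were higher in E16.5-4n almost throughout. This group was taken from 6 lists, of mitotic cyclins, kinases, the anaphase-promoting complex, the kinetochore, the spindle and cytokinesis, without members of general use such as tubulins, septins, ESCRT genes and the core subunits of the complex. Its 121 genes summed to 3132 CPM in the 2n library and 9526 CPM in E16.5-4n, a log2 ratio of 1.61 (95% interval 1.59 to 1.62). Of the 117 members with at least 100 UMIs, 91 were at least 2-fold higher and none at least 2-fold lower, with a median log2 ratio of 1.82 beside 0.03 over all compared genes. The ratio was above 0 for 113 of the 117. The sum depends on the members left out. With the members of general use kept, the kinetochore list summed to 1.62, kinases to 1.51 and mitotic cyclins to 1.46. The spindle list then summed to 1.01, the anaphase-promoting complex to 0.73 and cytokinesis to 0.45. Other choices of members were not among the settings tried.

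Promoters of mitosis genes are shown for 3 members with large and well counted differences, Cdc20, Cdk1 and Cks2, which binds CDK1 and had a log2 ratio of 1.90. Mcm6, a replication gene that was lower in E16.5-4n, is shown as a contrast. The 3 members were picked by hand and were not those with the largest differences. Genes whose window reached far into the GENCODE M21 gene were passed over. The lines give the 150 bases before the transcription start of the RefSeq window (GRCm38.p6), 5′ to 3′ on the strand of the gene, with matches in capitals. The words searched on either strand were TTTGAA, then the box CCAAT, and the E2F-type words TTTCCCGC, TTTGGCGC and TTTCGCGC, which may overlap each other. In reverse they read TTCAAA for the first and ATTGG for the box, and GCGCGAAA for the last.
Cdc20 (chr4:118437344-118437493, minus strand): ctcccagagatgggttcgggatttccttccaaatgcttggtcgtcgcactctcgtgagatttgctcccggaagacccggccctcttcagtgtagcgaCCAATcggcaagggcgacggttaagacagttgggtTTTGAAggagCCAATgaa
Cdk1 (chr10:69352913-69353062, minus strand): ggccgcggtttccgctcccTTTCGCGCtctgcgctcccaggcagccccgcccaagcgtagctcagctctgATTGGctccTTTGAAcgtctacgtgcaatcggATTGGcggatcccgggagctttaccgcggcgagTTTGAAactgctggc
Cks2 (chr13:51645082-51645231, plus strand): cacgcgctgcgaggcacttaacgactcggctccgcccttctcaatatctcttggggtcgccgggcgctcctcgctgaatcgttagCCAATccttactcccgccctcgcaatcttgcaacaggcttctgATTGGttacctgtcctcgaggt
Mcm6 (chr1:128359706-128359855, minus strand): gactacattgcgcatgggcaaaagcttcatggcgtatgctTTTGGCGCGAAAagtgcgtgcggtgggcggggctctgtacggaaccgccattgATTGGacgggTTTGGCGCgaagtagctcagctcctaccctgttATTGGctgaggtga
Cdc20 held TTTGAA with its first base 18 bases before the start and CCAAT 53 and 8 bases before it. Cdk1 held TTTGAA at 71 and 15 bases and the reverse of CCAAT at 80 and 48 bases, with an E2F-type word further upstream. Cks2 held CCAAT at 65 bases and its reverse at 22 bases, and no TTTGAA in these bases. Mcm6 held TTTGGCGC at 110 and 47 bases, the first overlapped by the reverse of TTTCGCGC. It also held the reverse of CCAAT at 57 and 14 bases, and no TTTGAA in these bases. These positions depend on the start used, and the GENCODE M21 models begin 9 bases further upstream for Cdc20 and 26 for Cdk1. In windows of 250 bases before to 50 after the start, TTTGAA on either strand was found in 54.3% of the 105 windows of the mitosis genes, in 11.9% of the 9543 windows of the compared genes and in 17.9% of all 32851 windows. CCAAT was found in 64.8%, 37.9% and 37.4%, and an E2F-type word in 6.67%, 3.71% and 1.85%. The 39 windows of DNA replication genes differed in this respect, with TTTGAA in 10.3%, CCAAT in 59.0% and an E2F-type word in 41.0%. In the 35 windows of sarcomere genes the shares were 8.57%, 40.0% and 0. Windows were found for 94 of the 117 mitosis genes, and the 52 of them with TTTGAA had a median log2 ratio of 1.98 against 1.23 for the 42 without. For CCAAT the medians were 1.85 and 1.53, and for E2F-type words, which 7 genes held, 1.96 and 1.81. A word of this length is a description of the sequence and does not show binding.

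Among the cyclins and the regulators of CDK1, 12 of 15 genes were at least 2-fold higher and all 15 were above 0, with a median of 1.90. Ccnb1, cyclin B1, at chr13:100778650-100786570 (GRCm38) on the minus strand, was at 38.4 CPM in the 2n library and 234 CPM in E16.5-4n, a log2 ratio of 2.61 (2.48 to 2.74). Cdk1, its kinase partner, was at 84.7 and 344 CPM, a log2 ratio of 2.02 (1.93 to 2.11). Ccna2, cyclin A2 of the S and G2 phases, had a log2 ratio of 1.91, and Ccnb2 of 1.45. The phosphatases that activate CDK1 did not go together, since Cdc25c had 2.13 and Cdc25b 1.57, whereas Cdc25a, which also acts at the G1/S transition, had 0.31. Pkmyt1, an inhibitory kinase of CDK1, had 0.20.

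Of the 17 mitotic kinases and checkpoint genes 13 were at least 2-fold higher, with a median of 1.46. Aurka, the centrosomal Aurora kinase, was at 13.9 and 97.5 CPM, a log2 ratio of 2.81 (2.60 to 3.03), and Plk1, Polo-like kinase 1, at 13.5 and 84.1 CPM, a log2 ratio of 2.64. Aurkb, the Aurora kinase of the chromosomal passenger complex, had 1.95 (1.73 to 2.17). Zw10 and Vrk1 had 0.31 and 0.43.

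The anaphase-promoting complex was split by role. Its activator Cdc20 was at 41.6 and 237 CPM, a log2 ratio of 2.51, and its ubiquitin-conjugating enzyme Ube2c at 134 and 675 CPM, a log2 ratio of 2.33. Espl1, the separase that cleaves cohesin, had 2.10 and the inhibitor Fbxo5 1.37. No core subunit was among the 4 of 18 genes past 2-fold, with 0.41 for Anapc1, 0.07 for Anapc5 and -0.01 for Anapc16. Pttg1, the securin, had -0.11 (-0.22 to 0.00) and was the lowest of the list.

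All 36 genes of the centromere and kinetochore were above 0 and 26 were at least 2-fold higher, with a median of 1.61. Cenpe, the kinesin that captures microtubules, had the largest value, from 10.2 to 75.5 CPM, a log2 ratio of 2.89 (2.64 to 3.15). Cenpf had 2.71, Spc25 of the NDC80 complex 2.36 and Cenpa, the centromeric histone, 1.64, while Cenpq had 0.42. In the spindle list 25 of 36 genes were at least 2-fold higher with a median of 1.99, led by Troap with 2.96 and Nusap1 with 2.65. Tubulins, which are used outside mitosis as well, had smaller values, between 0.89 for Tubb5 and 1.38 for Tuba1c. The HAUS subunits Haus1, Haus4 and Haus8 had 0.43, 0.28 and 0.14.

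Genes of cytokinesis were divided between dedicated and general members. Of 25 genes 14 were at least 2-fold higher, with a median of 1.11. Prc1, which bundles the central spindle, was at 20.1 and 139 CPM, a log2 ratio of 2.79 (2.61 to 2.97), and the citron kinase Cit had 2.60. Kif23 and Racgap1, the partners of centralspindlin, had 2.46 and 1.81, Ect2, the exchange factor for RhoA, 1.84 and Anln, anillin of the furrow, 1.87. Rhoa itself had 0.21, Myh10, a nonmuscle myosin of the ring, 0.35, and the ESCRT genes Chmp2a, Chmp4b and Vps4a between -0.04 and 0.09.

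Chromosome condensation and chromatin genes had a median of 0.86, with 11 of 32 at least 2-fold higher and all 32 above 0. Top2a, topoisomerase II alpha, was at 60.8 and 286 CPM, a log2 ratio of 2.24, against 0.26 for its paralog Top2b. Mki67 had 2.08, and the condensin I subunits Ncapg, Ncaph and Ncapd2 1.94, 1.75 and 1.32, against 0.93 and 0.95 for Ncapg2 and Ncapd3 of condensin II.

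**Figure D2:**
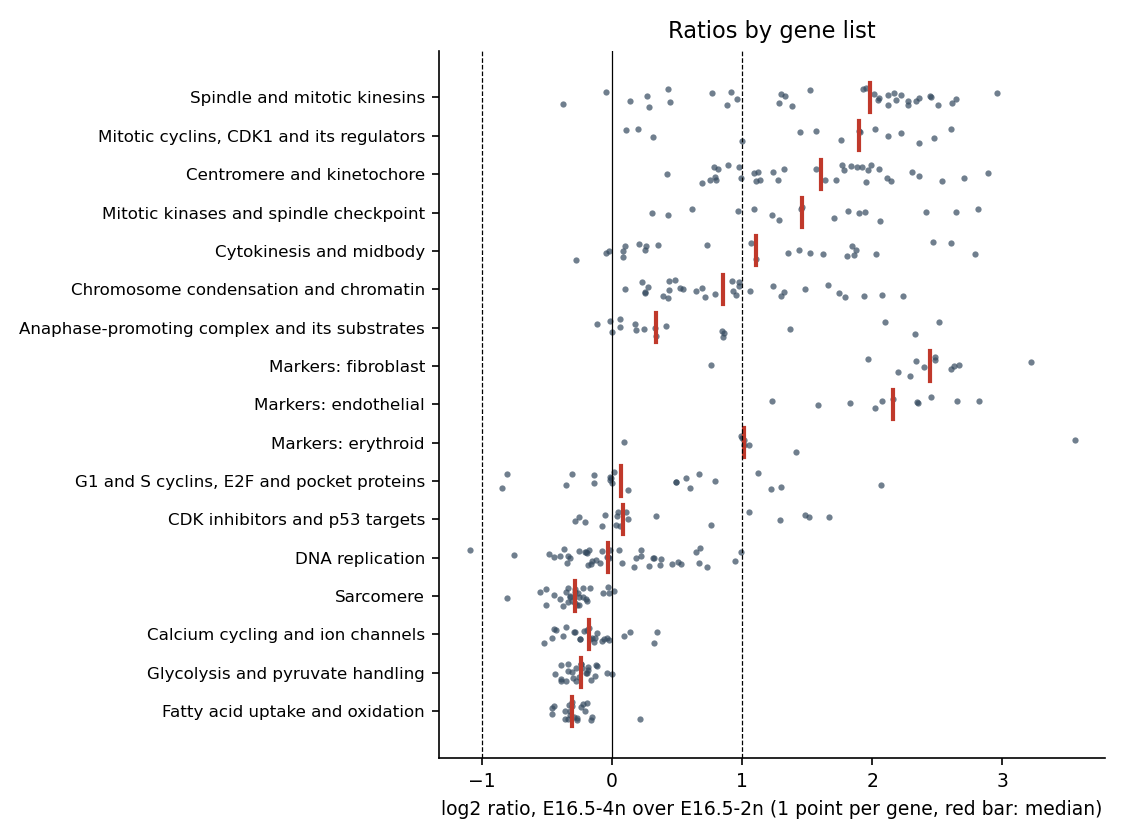
Log2 ratio of E16.5-4n over E16.5-2n of the genes of 17 lists, 1 point per gene with the median as a red bar and dashed lines at 2-fold. The median is 1.99 for spindle genes and 2.44 for fibroblast markers, and -0.31 for fatty acid genes.

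Single cells showed that the mitosis transcripts were unevenly spread. To compare cells of different depth, each CM was thinned at random to 1000 UMIs, which left out 163 shallower cells of the 2n library and 23 of E16.5-4n. After thinning the mean was 2.98 mitosis UMIs per cell in the 2n library and 9.39 in E16.5-4n. Of 5536 diploid cells 18.98% had 5 or more (17.96 to 20.04), and of 4857 cells of E16.5-4n 53.3% (51.9 to 54.7), a difference of 34.3 percentage points. Without thinning the shares were 40.4% and 70.7%. The shares differed most, as a ratio, at the top of the range: 1.01% of the 2n library and 17.3% of E16.5-4n cells had 20 or more, whereas 10.8% and 11.7% had 5 to 9. At the other end 23.4% and 8.75% had none. The limit of 5 cuts a continuous range, with 485 and 384 cells at 4 or 5 UMIs. At P1 the same share was 2.56% of the 2n and 8.38% of the 4n cells, and at P5 8.10% and 34.0%. Depth was less even there, with median UMIs per CM of 1831 and 3187 at P1 and 3759 and 4658 at P5. Thinning left out 700 cells of P1-2n and 20 of P5-2n, and 0 of either 4n library.

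**Figure D3:**
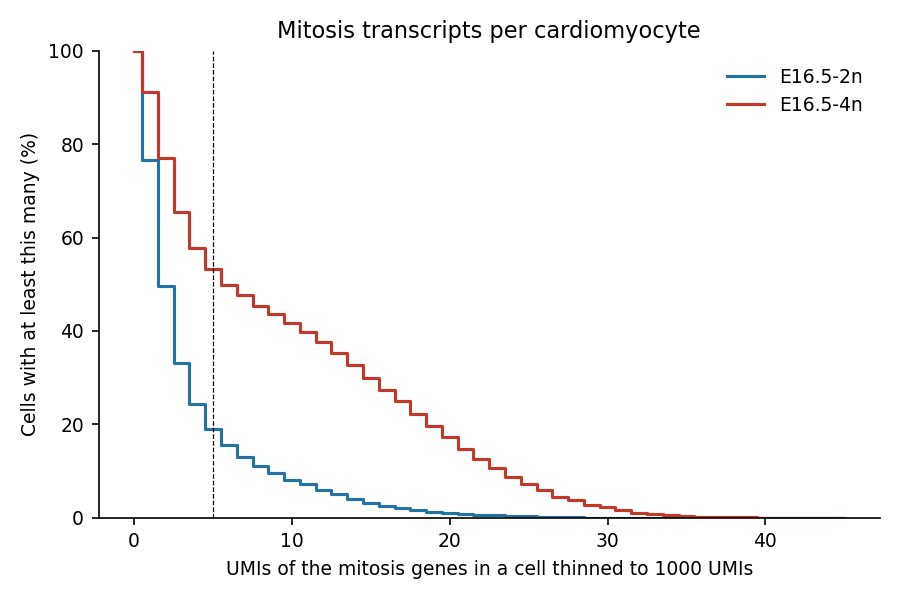
Percent of CMs with at least a given number of mitosis UMIs after thinning each cell to 1000 UMIs, for E16.5-2n (blue) and E16.5-4n (red), with a dashed line at 5 UMIs. The curve of E16.5-4n lies above that of E16.5-2n from 1 UMI on, with 53.3% against 18.98% of cells at 5 or more.

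DNA replication genes were divided within the list. Summed over all 45 genes they were at 2100 CPM in the 2n library and 2534 CPM in E16.5-4n, a log2 ratio of 0.27 (0.25 to 0.29), but the median over 44 compared genes was -0.03, with 20 above 0 and 24 below, none at least 2-fold higher and 1 at least 2-fold lower. The sum and the median thus had opposite signs, since abundant members such as Rrm2 carried the sum. The 8 genes of origin licensing were all below 0, from -1.09 to -0.32. Cdt1, the loader of the MCM helicase, was at 44.1 and 20.7 CPM, a log2 ratio of -1.09 (-1.30 to -0.89), the lowest of the list. Cdc6, its partner at the origin, had -0.75, and the helicase subunits Mcm6, Mcm4, Mcm3, Mcm2, Mcm5 and Mcm7 had -0.48, -0.45, -0.40, -0.34, -0.34 and -0.32. In contrast, 5 genes of nucleotide supply were above 0: Rrm2, a subunit of ribonucleotide reductase, was at 182 and 363 CPM (0.99), with Tk1 at 0.95, Tyms at 0.68, Rrm1 at 0.65 and Dut at 0.38. The clamp gene Pcna had -0.18 (-0.31 to -0.05). Ung, the uracil-DNA glycosylase, which no list held, was at 75.1 and 37.7 CPM, a log2 ratio of -0.99 (-1.15 to -0.84). The division of the list into licensing and nucleotide genes was made after the values were seen.

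Within cells of a similar mitosis content the replication genes were not higher in E16.5-4n throughout. Cells with 0 marker UMIs after thinning, some of which held marker UMIs at full depth, were binned by mitosis UMIs. Replication UMIs per thinned cell were 0.95 in the 2n library and 0.85 in E16.5-4n where mitosis UMIs were 0. They were 1.86 and 1.41 at 2 to 4, 4.56 and 3.36 at 5 to 9, and 4.83 and 4.16 at 10 to 19. They were thus highest at 10 to 19 mitosis UMIs in either library, and E16.5-4n was below E16.5-2n in each of the bins just given. In the remaining bins E16.5-4n was above E16.5-2n. At 20 or more mitosis UMIs, with 51 and 681 cells, replication UMIs were 2.80 and 3.19, and at 1 mitosis UMI 1.05 and 1.12. Among cells with 0 marker UMIs at full depth (marker-free) and 5 or more mitosis UMIs after thinning (mitosis-marked, 661 in the 2n library and 1294 in E16.5-4n) the summed log2 ratio was -0.40 (-0.44 to -0.36). There 22 of 4776 genes (0.461%) were at least 2-fold lower and 107 (2.24%) at least 2-fold higher, and all 7 licensing genes with enough UMIs were among the 22. Of the 107, 45 were mitosis genes, which the choice of cells used. Cdt1 had -2.63 (-3.16 to -2.13) in these cells, Mcm6 -1.47 (-1.86 to -1.10) and Mcm7 -1.08, while Rrm2 had 0.02 (-0.09 to 0.13). Ung had -2.46, and Ccne2 and E2f1 -1.86 and -1.74. This set of cells is a range of mitosis content and not a type, and its members lay higher in the range in E16.5-4n: among thinned cells without marker UMIs, 487, 324 and 51 had 5 to 9, 10 to 19 and 20 or more in E16.5-2n, against 266, 837 and 681 in E16.5-4n. Among marker-free cells with at most 1 mitosis UMI (mitosis-low, 1796 and 435 cells) the summed ratio of the replication genes was -0.12 (-0.22 to -0.01).

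**Figure D4:**
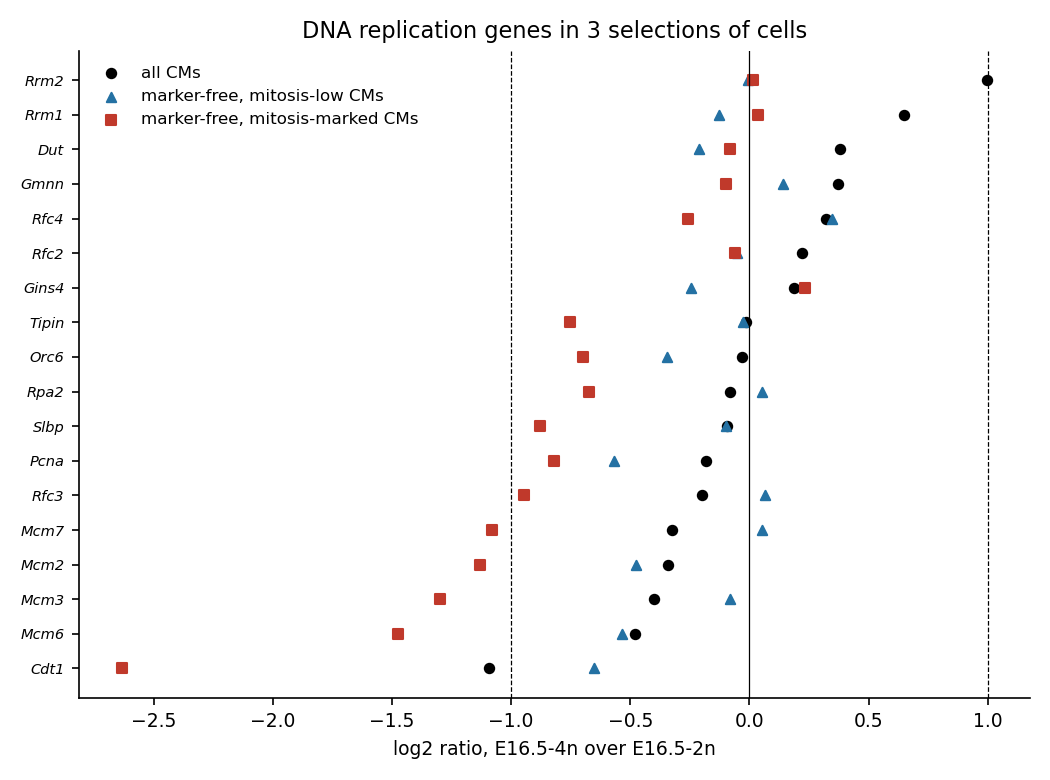
Log2 ratio of E16.5-4n over E16.5-2n for the 18 DNA replication genes with at least 100 UMIs in each selection of cells, over all CMs (black circles), marker-free mitosis-low CMs (blue triangles) and marker-free mitosis-marked CMs (red squares), with dashed lines at 2-fold. Cdt1 lies at -1.09 over all CMs and at -2.63 in mitosis-marked CMs, while Rrm2 lies at 0.99 and 0.02.

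Genes of the G1/S transition and the inhibitors of CDKs had medians near 0 and single members far from it. Of 22 cyclin, E2F and pocket protein genes 4 were at least 2-fold higher, beside 4.64% of all compared genes. Ccne2, cyclin E2, was at 22.6 and 12.5 CPM (-0.85, -1.13 to -0.57) and E2f1 at 20.3 and 11.6 CPM (-0.80, -1.10 to -0.52). Foxm1, which drives genes of G2 and M, was at 4.79 and 20.1 CPM (2.07, 1.69 to 2.47), and the MuvB subunits Lin9 and Lin54 had 1.22 and 1.13. Ccnd1, cyclin D1, had 1.30 over all CMs and 0.21 (-0.40 to 0.81) in marker-free CMs. Of 18 CDK inhibitors and p53 targets 5 were at least 2-fold higher, namely Cdkn2c (p18) with 1.67, Cdkn1b (p27) with 1.52, Cdkn3 with 1.48, Cdkn2d (p19) with 1.29 and Ccng2 with 1.05. Cdkn1a (p21) had 0.34 and Trp53 0.04. In mitosis-low marker-free CMs Cdkn2d had -0.06 (-0.43 to 0.29), and Cdkn1b, with fewer than 100 UMIs there, was not compared.

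Genes of the contractile apparatus were slightly lower in E16.5-4n. The 29 sarcomere genes summed to 86347 and 70202 CPM, a log2 ratio of -0.30 (-0.30 to -0.29), with 28 of 29 below 0 and a median of -0.29. None was past 2-fold. Over all compared genes 4.64% were at least 2-fold higher and 0.0208% at least 2-fold lower, so nothing is read from this count. Acta1, skeletal alpha-actin, at 156 and 89.0 CPM had the lowest value, -0.81 (-0.91 to -0.71), followed by Tcap (telethonin) with -0.55. The filter genes Actc1, Tnni3, Tnnt2 and Tnnc1 belong to this list and had -0.45, -0.28, -0.26 and -0.20. Ttn (titin) and Nebl (nebulette) had -0.02 and 0.01. Among cells with 0 marker UMIs after thinning, sarcomere UMIs per thinned cell were lower in either library where mitosis UMIs were more numerous. They ran from 92.4 at none to 70.1 at 20 or more in E16.5-2n and from 86.0 to 64.9 in E16.5-4n. In mitosis-low marker-free CMs the summed ratio was -0.11 (-0.12 to -0.09) and the median -0.05, with Myh7 at 0.09 and Actc1 at -0.26.

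Other genes of the working CM differed by similar or smaller amounts. Calcium cycling and channel genes had a median of -0.17, with 22 of 26 below 0. Fatty acid genes had -0.31 with 20 of 21 below 0, glycolysis genes -0.24 with Hk2 at 0.00 as the highest of 25, nuclear respiratory chain genes -0.10, and mitochondrially encoded genes 0.02. None of these lists held a gene past 2-fold. Over all compared genes 4.64% were at least 2-fold higher and 0.0208% at least 2-fold lower, so nothing is read from the lack of lower genes. The natriuretic peptide gene Nppb was at 493 and 296 CPM (-0.74, -0.79 to -0.68), while Nppa had -0.11 over all CMs, 0.14 in marker-free, 0.59 in mitosis-low and 0.79 in mitosis-marked CMs, a value whose sign thus turned with the cells chosen. Besides Cdt1, Ung, Acta1, Nppb, Ccne2 and E2f1, the 15 genes ranked lowest by the interval bound nearest to 0 were Sgca (alpha-sarcoglycan), Pygm (muscle glycogen phosphorylase), Itgb1bp2 (melusin), Dapk3, Fam69b, Sh3bp1, Ptov1, Ankrd63 and Ints4, with log2 ratios between -0.66 for Ptov1 and -1.19 (-1.86 to -0.55) for Ankrd63.

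Markers of other cell types were also higher in E16.5-4n. The 54 markers of fibroblasts, endothelium, mural, immune and epicardial cells summed to 343 CPM in the 2n library and 1299 CPM in E16.5-4n, a log2 ratio of 1.92 (1.88 to 1.97), and 25 of 33 compared markers were at least 2-fold higher. Some abundant members differed little. Abcc9, Tbx18 and Cspg4 had 493, 346 and 238 UMIs in the 2n library and 455, 382 and 212 in E16.5-4n. They count in the sum and in the choice of marker-free cells, and whether CMs make them was not tested. Fibroblast markers were highest, with 11 of 12 at least 2-fold higher and 174 against 917 CPM in sum. Col1a1, collagen I alpha 1, at chr11:94936224-94953042 on the plus strand, was at 15.9 and 148 CPM (3.22, 3.02 to 3.42) and Postn (periostin) at 28.7 and 151 CPM (2.40). All 11 compared endothelial markers were at least 2-fold higher, with Emcn (endomucin) at 2.45 and Cdh5 (VE-cadherin) at 2.02, and 41.2 against 170 CPM in sum. Mural markers had a median of 1.00 over 6 genes that were split, from -0.0048 for Cspg4 to 2.34 for Pdgfrb, and summed to 75.1 and 118 CPM. Immune markers summed to 16.3 and 42.0 CPM, and epicardial markers to 36.4 and 51.8 CPM. Lyz2, the only immune marker compared, had -0.24. Of 3 epicardial markers compared 2 were above 0, up to 0.88 for Wt1, and Krt19 had -0.40. Of these 5 lists, Ptprc, Upk1b and Muc16 were at 0 UMIs in E16.5-2n, which allows up to 0.205 CPM (3 UMIs), and no marker was at 0 in E16.5-4n. Adult globins stood close to 1 on the log2 scale, from 0.99 for Hbb-bt to 1.02 for Hbb-bs.

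Some of the largest ratios rested on very few cells. In E16.5-4n, 10 cells held 84.8% of the 820 UMIs of the embryonic globin Hbb-y, 92.1% of the 126 UMIs of Hba-x and 95.7% of the 115 UMIs of Spp1 (osteopontin). Cxcl2, a chemokine, had 9 UMIs in the 2n library and 132 in E16.5-4n, 58.3% of the latter in 10 cells. By contrast 10 cells held 3.43% of the Ccnb1 and 6.67% of the Col1a1 UMIs. Together with Col1a1, Col1a2 and Fbln5 and the mitosis genes Cenpe, Prc1, Aurka, Cenpf, Ccnb1, Nusap1 and Troap, these 4 genes and Sapcd2, which orients the spindle, were the 15 genes ranked highest. Sapcd2 had 23 and 232 UMIs, a log2 ratio of 3.50 (2.88 to 4.18).

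In E16.5-4n, cells with more marker transcripts less often held many mitosis transcripts. After thinning, 9.45% of E16.5-4n CMs had 5 or more marker UMIs, against 0.74% of diploid CMs, and 60.6% and 81.1% had none. Among E16.5-4n cells without a marker UMI 60.6% had 5 or more mitosis UMIs (58.8 to 62.4), at 1 marker UMI 54.7%, at 2 to 4 35.6% and at 5 or more 28.1% (24.0 to 32.5). In E16.5-2n the shares were 19.2%, 17.5%, 19.1% and 26.8%, the last of 41 cells (14.2 to 42.9). Median UMIs before thinning were 2199.5 and 2167 for the first and the last bin of E16.5-4n, and 2289.5 and 3228 for those of E16.5-2n. Sarcomere UMIs per thinned cell were 73.2 in the first and 53.5 in the last bin of E16.5-4n. Of the 447 higher genes, 327 were no marker and had at least 100 UMIs in the marker-free and the marker-bearing (2 or more marker UMIs at full depth) CMs of E16.5-4n together. Of these, 182 were lower and 145 higher in the marker-bearing cells, and all 90 mitosis genes were among the 182. The same split was not counted over all compared genes, so nothing is read from 182 against 145. Whether marker transcripts came from free RNA, from doublets or from the CMs themselves was not tested.

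**Figure D5:**
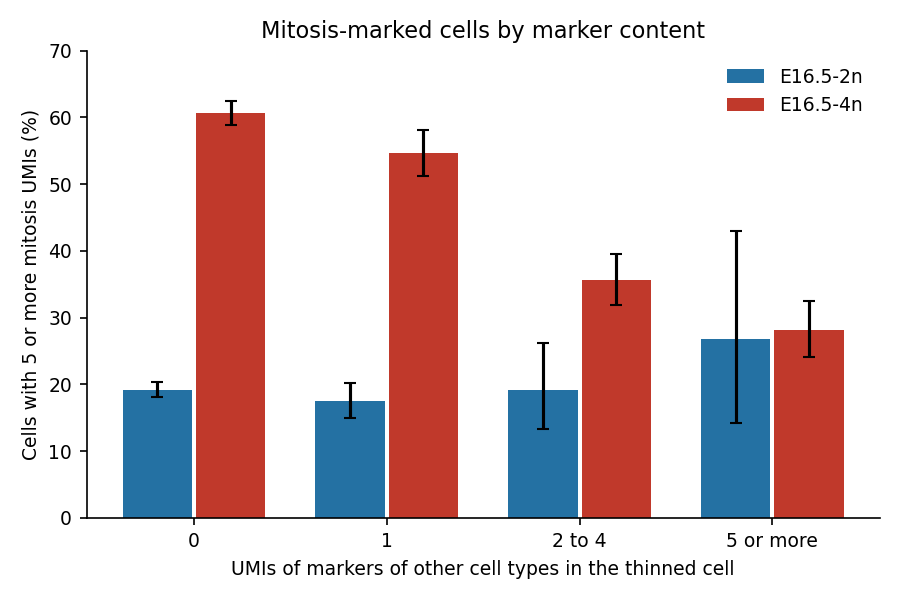
Percent of CMs with 5 or more mitosis UMIs by the number of marker UMIs of other cell types, in cells thinned to 1000 UMIs, for E16.5-2n (blue) and E16.5-4n (red), with exact 95% binomial intervals as bars. In E16.5-4n the share runs from 60.6% at 0 marker UMIs to 28.1% at 5 or more, and in E16.5-2n it lies between 17.5% and 26.8%.

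Mitosis genes were also higher in cells without marker transcripts. Among CMs with 0 UMIs of the 54 markers at full depth, 3649 diploid and 2128 tetraploid cells of somewhat lower depth (medians of 2093 and 1856 UMIs), 233 of 7612 genes (3.06%) were at least 2-fold higher and 18 (0.236%) at least 2-fold lower. The mitosis genes summed to a log2 ratio of 1.94 (1.91 to 1.96) and 95 of 111 were at least 2-fold higher. Of the 447 genes above, 216 had at least 100 UMIs in these cells and 184 of them were at least 2-fold higher there, including all 87 mitosis genes. The marker-free cells are part of the CMs from which the 447 genes were taken, so that this overlap is in part built in and is no independent support. Ccnb1 had 2.96 (2.78 to 3.13) and Cdk1 2.48. Sarcomere genes summed to -0.25, and adult globins had between 0.10 and 0.22. In the mitosis-low cells among them the globins had between 0.68 and 0.97, and in the mitosis-marked cells between -0.13 and 0.05. The imprinted growth genes had a median of 0.47 over all CMs, with Dlk1 at 2.46, H19 at 0.69 and Igf2 at 0.45, and of -0.06 in marker-free CMs, with H19 at 0.17 and Igf2 at 0.02 (-0.08 to 0.11).

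A smaller set of genes was higher in E16.5-4n both in mitosis-low and in mitosis-marked cells without marker transcripts. In mitosis-low marker-free CMs 19 of 4662 genes (0.408%) were at least 2-fold higher and 25 (0.536%) at least 2-fold lower, and none of the 19 was a mitosis gene, which the choice of cells used. Of 4282 genes with enough UMIs in both mitosis-low and mitosis-marked CMs, 11 were at least 2-fold higher in both sets and none at least 2-fold lower in both. They were Pam, Actb, Dctn4, Slc39a1, Nfia, Cbx3, Spry2, Alpk3, Kdm6b, Pim1 and Supt16, and were singled out after their values were seen. Both sets of cells come from the same libraries, so a gene that passes in both was not observed independently. Of the 19 genes, 12 were also at least 2-fold higher over all CMs. Pam, an enzyme of peptide amidation, at chr1:97795114-98095646 on the minus strand, was at 336 and 750 CPM over all CMs (1.16, 1.11 to 1.21), and had 1.57 (1.45 to 1.68) in mitosis-low and 1.49 (1.34 to 1.64) in mitosis-marked cells. Actb, cytoplasmic beta-actin, was at 147 and 726 CPM (2.30, 2.23 to 2.37), with 1.57 (1.36 to 1.77) and 2.03 (1.80 to 2.28). Nfia, a transcription factor, had 1.61 over all CMs, and Cbx3, a heterochromatin protein, 1.24. Actb differed from Pam in that it was also higher in the marker-bearing than in the marker-free cells of E16.5-4n (1.64), where Pam had -0.35. Where mitosis UMIs were 0 at full depth (335 and 59 cells), 6 of 885 genes (0.678%) were at least 2-fold higher and 7 (0.791%) at least 2-fold lower, led by Pam with 1.94 (1.61 to 2.26) and Actb with 1.92 (1.34 to 2.48). The other genes highest there included Hba-a2 with 1.04 and Malat1 with 0.74, and the lowest were Vdac1 with -0.79 and Vps29 with -1.60, of which Vps29 had 5 UMIs in E16.5-4n.

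Of the transcription factors that the study took up for functional work, none of 11 was past 2-fold, beside 4.64% of all compared genes at least 2-fold higher, so nothing is read from this count. Their median was 0.14. Zeb1, a zinc finger repressor, was at 18.4 and 29.1 CPM (0.66, 0.43 to 0.89), with 0.54 (0.17 to 0.91) in marker-free and 0.18 (-0.44 to 0.81) in mitosis-marked CMs. Nfya, the subunit of NF-Y that contacts CCAAT, was at 10.1 and 15.5 CPM (0.62, 0.31 to 0.93). E2f1 is given above, and Usf1 was at 29.8 and 21.0 CPM (-0.50, -0.73 to -0.28). These factors were chosen in part on data of this series, and their direction here is no independent evidence. Of 19 cardiac transcription factors 18 lay between -0.26 for Nkx2-5 and 0.21 for Mef2c, and the 1 beyond 2-fold was Nfia.

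The comparison of 4n with 2n at the later ages, run in the same way, had mitosis genes higher in 4n at each age, beside other values for markers and replication. Depth was less even between 2n and 4n at these ages than at E16.5. At P1 505 of 9653 genes (5.23%) were at least 2-fold higher in 4n and none lower (0%), and at P5 175 of 9349 (1.87%) were higher and 38 (0.406%) lower. The summed mitosis genes had 1.02 at P1 and 1.65 at P5, beside 1.61 at E16.5, although their level in the 2n library was 995 CPM at P1 and 1740 CPM at P5 against 3132 CPM at E16.5. Ccnb1 had 2.58 and 3.41. The markers of other cell types had 2.15 at P1 and 0.31 at P5. Replication genes summed to 0.12 and -0.32, and Cdt1 had -0.42 and -2.17. Sarcomere genes had -0.13 and -0.11, and Acta1 -0.45 and 0.37. Of the genes higher in both cell sets, Pam had 0.19 and -0.24 and Nfia 0.46 and 0.08, while Actb had 1.89 at P1 and 0.25 at P5, beside 1.16, 1.61 and 2.30 at E16.5. Whether ages differed could not be tested with 1 library for each.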

How the data were processed

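Droplet-based scRNA-seq of sorted CMs was analysed from the raw UMI counts per gene and cell that the authors deposited for each library. The authors made these counts from 10x Genomics 3′ v2 libraries, sequenced on a NextSeq, with Cell Ranger and alignment by STAR to mm10/GRCm38. Per the study's methods, UMIs were counted by strand and included those in introns. Cell Ranger versions are not given in the sources used here, and Seurat 2.3.0, also named in the submitters' processing notes, was not used on the count files. Of 27998 genes, 56 symbols stood for more than 1 gene.

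Here the UMIs of each gene were added up across all CMs of 1 library and scaled by the library's CM total (CPM), without a pseudocount. Log2 ratios carry an exact binomial interval, from how the gene's UMIs divide between the libraries, and shares of cells have Clopper-Pearson intervals, which cover counting error only. A floor of 3 UMIs stands for 0. With 1 library per side no test was run, the cells and litters are not replicates, and a fold of 2 only sorts genes. Scripts used Python 3.11.15 with NumPy 2.4.6, SciPy 1.17.1 and pandas 2.3.3 and were tested on simulated data. Cells were thinned without replacement with a fixed seed. No doublet caller was run, and the deposited cells were taken as called by the authors. Doublets remained as a possibility, and the deepest 5% of cells were left out as an alternative. This setting does not remove doublets of ordinary depth. Median UMIs of E16.5-4n cells with 5 or more and with 0 marker UMIs after thinning were 2167 and 2199.5. In E16.5-2n the same medians were 3228, of 41 cells, and 2289.5. Whether doublets were among the cells was not tested.

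The members, the lists and the rules were chosen with earlier results of these data known. Named genes are list members and, in each direction, the 15 genes whose interval bound nearest to 0 is farthest from it, over all CMs and over CMs without marker or mitosis UMIs. Gene positions are from GENCODE M21 (GRCm38) by gene ID, and promoters from RefSeq (GRCm38.p6). A deposited table of the authors' comparison between ages holds fold changes and was not used, nor was a deposited list of background genes. Other scalings, cell filters, depths, thresholds and minimums were tried as alternatives.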

Additional observations from a re-analysis of the deposited data

Results flagged for a closer look

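The gene lists below are given because their summed log2 ratio of 4n over 2n lay at least 0.2 on opposite sides of 0 at E16.5 and at P5, with intervals that did not reach 0. The difference between ages was not tested, since each value rests on 1 library per side. DNA replication genes had 0.27 at E16.5 and -0.32 at P5. Replication-type histone genes had -0.33 and 0.97, where Hist1h1c, a linker histone that is also made outside S phase, had -0.57 and 1.49. Of these 27 genes, 6 had enough UMIs to be compared. RNAs of most replication-type histone genes lack poly(A) tails, and whether this lowered their counts in 3′ libraries was not tested. Nuclear long noncoding RNAs had 0.50 and -0.34, with Malat1 at 0.50 and -0.35 as their main member. Sex-linked genes had 0.47 and -0.23, with Xist at 0.60 and -0.35. Their medians were 0.28 over 4 genes at E16.5 and 0.09 over 3 at P5, so the median did not share the sign of the P5 sum. The Y-linked Eif2s3y had -0.07 at E16.5 and Ddx3y 0.30 at P5. The litters pooled into each library were not sexed in the labels. Immune markers had 1.37 and -0.31, on 238 and 549 UMIs at E16.5. Lyz2, the only immune marker with at least 100 UMIs there, had -0.24, so that the higher sum rested on genes under that minimum. Erythroid genes had 1.02 and -0.44, nearly all of it adult globin.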

How the results depend on the processing

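Among the libraries and settings run, mitosis genes, markers and the share of mitosis-marked cells stayed higher and sarcomere genes lower in E16.5-4n, while the replication sum turned. It was -0.12 in marker-free mitosis-low and -0.40 in marker-free mitosis-marked CMs, settings chosen after seeing the data, where sarcomere genes had -0.11 and -0.16. The counts of higher genes that left the 1.5-fold range of 447 were 295 with cells thinned to 1000 UMIs, 268 and 233 without cells of 2 or more and 1 or more marker UMIs, 937 and 161 at minimums of 20 and 500 UMIs, and 895 at 1.5-fold. The count of lower genes, 2, was 4 with median-of-ratios scaling, 6 with equal weight of cells, 4 after thinning, 15 and 18 without those marker cells, 5 without the deepest 5% of cells, 85 and 1 at minimums of 20 and 500, 100 at 1.5-fold, and 1 with each gene counted once per cell, added after seeing the data. Median-of-ratios scaling and totals without the 50 most abundant genes gave 1.57 and 1.58 for mitosis, 0.24 and 0.24 for replication and -0.33 and -0.33 for sarcomere genes. Equal weight of cells gave 1.65, 0.39, -0.31 and, for markers, 2.11. Thinning gave 1.66, 0.40, -0.32 and 2.21. Leaving out cells with 2 or more marker UMIs gave 1.91, 0.39, -0.24 and 0.23, and with 1 or more 1.94, 0.40 and -0.25, with no value left for markers. Without the deepest 5% of cells mitosis, sarcomere and marker genes had 1.65, -0.31 and 2.21. Markers had 1.79 without the CM filter, and sarcomere genes -0.29 both at 2 UMIs of each CM gene and without erythroid genes. The difference in mitosis-marked cells was 30.3 points at full depth, 41.0 and 41.7 without marker cells, and 27.4 at 2 UMIs. Apart from the construction of each setting, the cause was not tested. No paired analysis was possible because each group is 1 library. Depth limits genes under 100 UMIs, which were not compared.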

Other observations

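Some gene lists were not described above. Atrial genes had a median of -0.18 over 8 genes, with Sln (sarcolipin) at -0.46 and Myl4 at -0.38, whereas Nr2f2, a nuclear receptor of atrial and venous cells, had 2.80. Hypoxia genes had a median of -0.07 over 19 genes, with Slc2a1, a glucose transporter, at -0.39 and Epas1, the HIF subunit known from endothelium, at 1.40. Immediate early and stress genes had 0.09 over 31 genes, with Atf3 at -0.44 and Klf2, a factor of endothelium under flow, at 1.02. Genes of trabeculae and conduction had -0.10 over 14 genes, with Gja5 (connexin 40) at -0.53 and Id2 at 0.44. These values are over all CMs. In marker-free CMs the highest genes compared were Angpt1 with 0.05 (atrial), Ankrd37 with 0.40 (hypoxia), Phgdh with 0.45 (stress) and Nppa with 0.14 (trabecular). Nr2f2, Epas1, Klf2 and Id2 were there no higher than these in their lists, or had too few UMIs to be compared. Genes of the compact wall had -0.04 over 6 genes, from -0.19 for Hand1 to 0.22 for Prdm16. Schwann cell and neural crest markers had a median of 1.03 over the 2 genes compared. Fabp7 had 2.13 and Erbb3 -0.06, while Sox10 and Foxd3 were at 0 UMIs in either library.

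Replication-type histones were divided, with Hist1h2ap at 2.08 and Hist1h4i at 0.67 beside Hist1h2bc at -0.31. Among nuclear long noncoding RNAs Meg3 had 0.99, Neat1 0.52 and Kcnq1ot1 0.23 over all CMs. The sign of Meg3 turned with the cells chosen, with -0.38 in marker-free, 0.48 in mitosis-low and -0.32 in mitosis-marked CMs. Cells with 5 or more replication UMIs after thinning made up 13.9% of the 2n and 19.6% of the 4n library, and those with 5 or more UMIs of both replication and mitosis genes 8.42% and 16.8%. Fibroblast markers reached 2 or more UMIs in 1.43% and 15.2% of thinned cells, endothelial markers in 0.29% and 3.89%, and both together in 0.13% and 0.49%.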
